A study of Mus musculus with 45 samples.

Results

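The genes described here are 44 of those that copy DNA and supply its building blocks, among 30317 gene symbols in the deposited expression table. They were chosen by name, with earlier results of these data known. They were followed in follicular B cells purified from the spleens of B6.Blimp1GFP/+ mice, which carry a green fluorescent reporter in 1 copy of Blimp1, a gene that drives plasma cell formation, so that every group shares this genotype. Cultures used either OP9 stroma, which is derived from mouse bone marrow, or OP9-DL1, its derivative that displays Delta-like 1, a ligand of Notch receptors. "OP9" and "DL1" below name B cells from these cultures. LPS from Salmonella, a ligand of Toll-like receptor 4, or anti-IgM F(ab')2, which binds the B cell receptor, was given at 10 µg/mL for 20, 44 or 68 h. Unstimulated cells were taken at 68 h on both stromas, and a last group holds Blimp1+ cells sorted out of LPS-treated DL1 cultures at a time that the labels do not give. The series holds 45 polyA RNA libraries in 15 groups of 3, each from cells sorted for viability. The labels give no mouse age and do not say what separates the replicates of a group, so p-values measure only the spread between these libraries, which may be technical.

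Before a cell divides, each replication origin is loaded with the ring-shaped Mcm2 to Mcm7 helicase by the origin recognition complex, Cdc6 and Cdt1, a step called licensing. Cdc45 and the Gins complex then switch the helicase on, primase and polymerase alpha lay primers, and polymerases delta and epsilon extend them on the sliding clamp Pcna, which the Rfc complex loads. Ribonucleotide reductase (Rrm1, Rrm2), Tyms, Tk1 and Dut supply the deoxynucleotides, and Slbp and the Chaf1 proteins supply and place histones on the new DNA. Resting B cells barely transcribe many of these genes, and stimulated B cells turn them on as they enter the cell cycle. E2F transcription factors, held back by the retinoblastoma protein family in resting cells, bind the promoters of many of them.

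Promoter sequence is shown for 5 members, 4 that hold an E2F-type word and Rrm2, the member that varied most across the groups. RefSeq windows (GRCm38.p6, 250 bases before to 50 after the start) matched 37 of the 44 members. The words searched on both strands were TTTCCCGC, TTTCGCGC, TTTGCCGC and TTTGGCGC, which can overlap each other. At least 1 of these words stood in the windows of 13 of the 37 members (35.1%) and of 704 of 27025 genes in the table (2.61%). The CCAAT word, on either strand, stood in 23 of the 37 members (62.2%) and in 41.1% of the genes. The 160 bases before the start follow, with E2F-type words in capitals.
Mcm5, chr8:75109349-75109508, plus strand: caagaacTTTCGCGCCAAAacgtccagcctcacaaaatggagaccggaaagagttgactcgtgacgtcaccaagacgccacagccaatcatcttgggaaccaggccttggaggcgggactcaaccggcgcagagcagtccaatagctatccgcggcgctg
Mcm6, chr1:128359706-128359865, minus strand: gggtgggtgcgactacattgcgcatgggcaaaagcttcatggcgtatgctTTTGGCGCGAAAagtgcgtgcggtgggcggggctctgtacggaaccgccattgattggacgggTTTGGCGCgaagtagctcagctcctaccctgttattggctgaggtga
Cdc6, chr11:98907991-98908150, plus strand: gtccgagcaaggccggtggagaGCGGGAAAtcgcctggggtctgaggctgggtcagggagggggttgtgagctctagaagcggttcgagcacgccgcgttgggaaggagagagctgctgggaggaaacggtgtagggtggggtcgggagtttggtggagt
Pola1, chrX:93632156-93632315, minus strand: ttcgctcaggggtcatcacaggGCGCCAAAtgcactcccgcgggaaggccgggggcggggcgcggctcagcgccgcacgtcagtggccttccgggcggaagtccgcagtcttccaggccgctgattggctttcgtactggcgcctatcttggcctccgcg
Rrm2, chr12:24708094-24708253, plus strand: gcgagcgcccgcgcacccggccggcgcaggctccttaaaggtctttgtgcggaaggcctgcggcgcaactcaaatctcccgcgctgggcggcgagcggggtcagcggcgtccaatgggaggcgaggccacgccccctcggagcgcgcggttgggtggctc
Mcm5 holds 2 overlapping words, Mcm6 holds 3 of which 2 overlap, Cdc6 and Pola1 hold 1 each, and the Rrm2 window holds none. For Mcm5 and Mcm6 no stretch of 15 bases among the 50 after the RefSeq start lay in a GENCODE transcript of the gene. Such a stretch was found for Cdc6, Pola1 and Rrm2 and for 37 of the 42 member windows. A matching word describes the sequence alone, and binding was not measured in these data.

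Values are TPM, which scale the transcripts of a library to a fixed total, divided by a size factor per library and called scaled TPM, and they are comparable between genes because TPM is per transcript length. The depth read from the authors' log2 table ran from 3.07 to 29.1 M reads per library. In 10 libraries Actb stood at 12355 to 85337 TPM, against 217 to 2974 TPM in the other 35, and these are called high-Actb libraries. They are all 3 libraries of DL1 LPS at 20 h, all 3 of OP9 anti-IgM at 20 h, and replicate 3 at 68 h of unstimulated OP9, OP9 LPS, DL1 LPS and OP9 anti-IgM. Replicate 3 of OP9 LPS at 20 h also differed from its partners, with Gins4 at 763 scaled TPM against 71.7 and 65.5. None of 8 B cell marker genes was listed at 0 in any library, and their sum was 0.095 to 0.764% of TPM outside the unstimulated OP9 libraries. In those it was 0.043, 0.229 and 0.21%, below that range in replicate 1 only. There 17 stromal marker genes summed to 1.76, 1.23 and 0.126% in the 3 replicates, against at most 0.0505% elsewhere. The sum of 8 T cell marker genes was at most 0.0429% of TPM, and Lck, a kinase of T cell receptor signalling, made up a median of 95.4% of it. Cd3e, a defining T cell receptor subunit, was listed at 0 in 33 of 45 libraries and reached at most 0.738 TPM. Cd3d was listed at 0 in none of the libraries, with values from 0.188 to 2.69 TPM. The highest values of the others were 17.0 TPM for Cd3g, 10.1 for Trbc2, 5.80 for Cd4, 2.93 for Trac and 2.28 for Cd8a. In bulk RNA, fewer dividing cells and less of these transcripts per cell cannot be told apart.

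The replication genes were lowest in unstimulated cells and highest at 44 h of LPS on OP9. The median of the 44 genes, as log2(scaled TPM + 1), was 4.33 ± 0.20 in unstimulated OP9 cells and 5.38 ± 0.17 in unstimulated DL1 cells (SD, n = 3). It reached 7.49 ± 0.03 with LPS at 44 h on OP9 and 7.16 ± 0.03 on DL1, and 6.79 ± 0.12 and 7.05 ± 0.08 with anti-IgM at 44 h on OP9 and DL1. At 68 h the LPS cultures were at 6.54 ± 0.21 on OP9 and 6.24 ± 0.24 on DL1, and the anti-IgM cultures at 6.11 ± 0.16 and 6.74 ± 0.07. At 20 h the median was 6.36 ± 0.05 with LPS on OP9, 7.09 ± 0.10 with LPS on DL1, 5.83 ± 0.36 with anti-IgM on OP9 and 6.37 ± 0.04 with anti-IgM on DL1. Blimp1+ cells stood at 6.36 ± 0.13. Each LPS library at 44 h lay above every LPS library at 68 h, and each unstimulated library lay below every stimulated one, except that unstimulated DL1 replicate 1 lay above OP9 anti-IgM at 20 h replicate 1. Neighbours in this order often overlapped: OP9 LPS at 20 h, DL1 anti-IgM at 20 h and Blimp1+ cells differed by less than their spread.

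**Figure D1:**
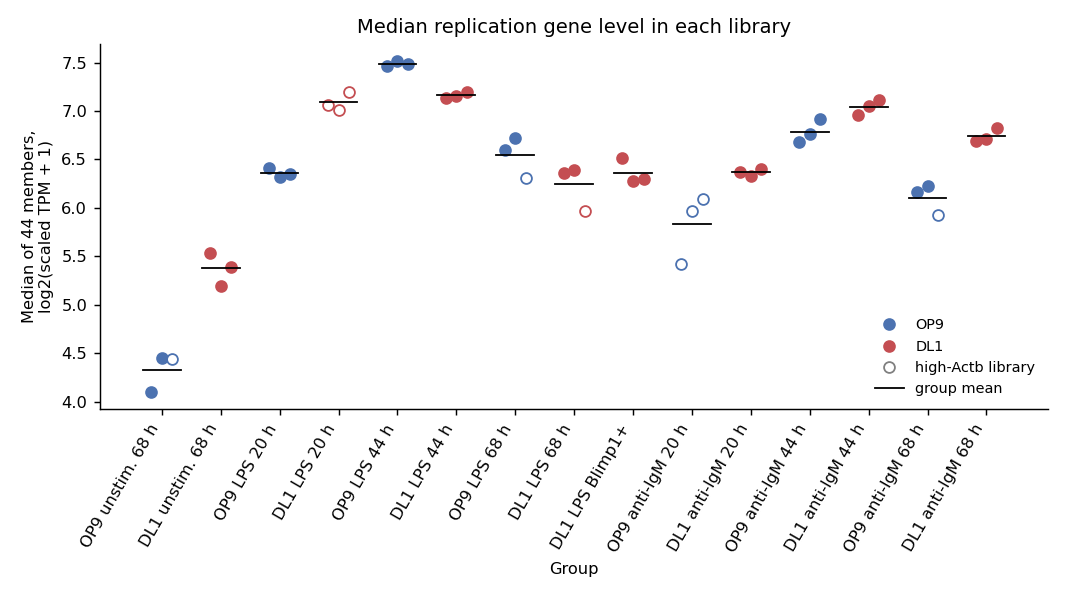
Median of the 44 replication genes in each of the 45 libraries, as log2(scaled TPM + 1), with the group mean as a line, OP9 in blue, DL1 in red and high-Actb libraries as open circles. The 3 OP9 LPS libraries at 44 h lie together at the top, and unstimulated OP9 libraries at the bottom, from 4.10 to 4.45.

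Together the 44 genes took up 0.13 ± 0.023% of all TPM in unstimulated OP9 cells, 0.284 ± 0.017% in unstimulated DL1 cells and 0.904 ± 0.068% in OP9 LPS cells at 44 h. OP9 LPS at 44 h held the highest group mean for 20 of the 44 genes, and for 32 when high-Actb libraries were left out. DL1 LPS at 20 h, where all libraries are high-Actb libraries, held it for 13, among them Pola1, Pold2, Gins2 and Rfc4. The lowest group mean was in unstimulated OP9 cells for 34 genes and in unstimulated DL1 cells for 8, among them Tyms, Dut, Orc6 and Gins2.

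**Figure D2:**
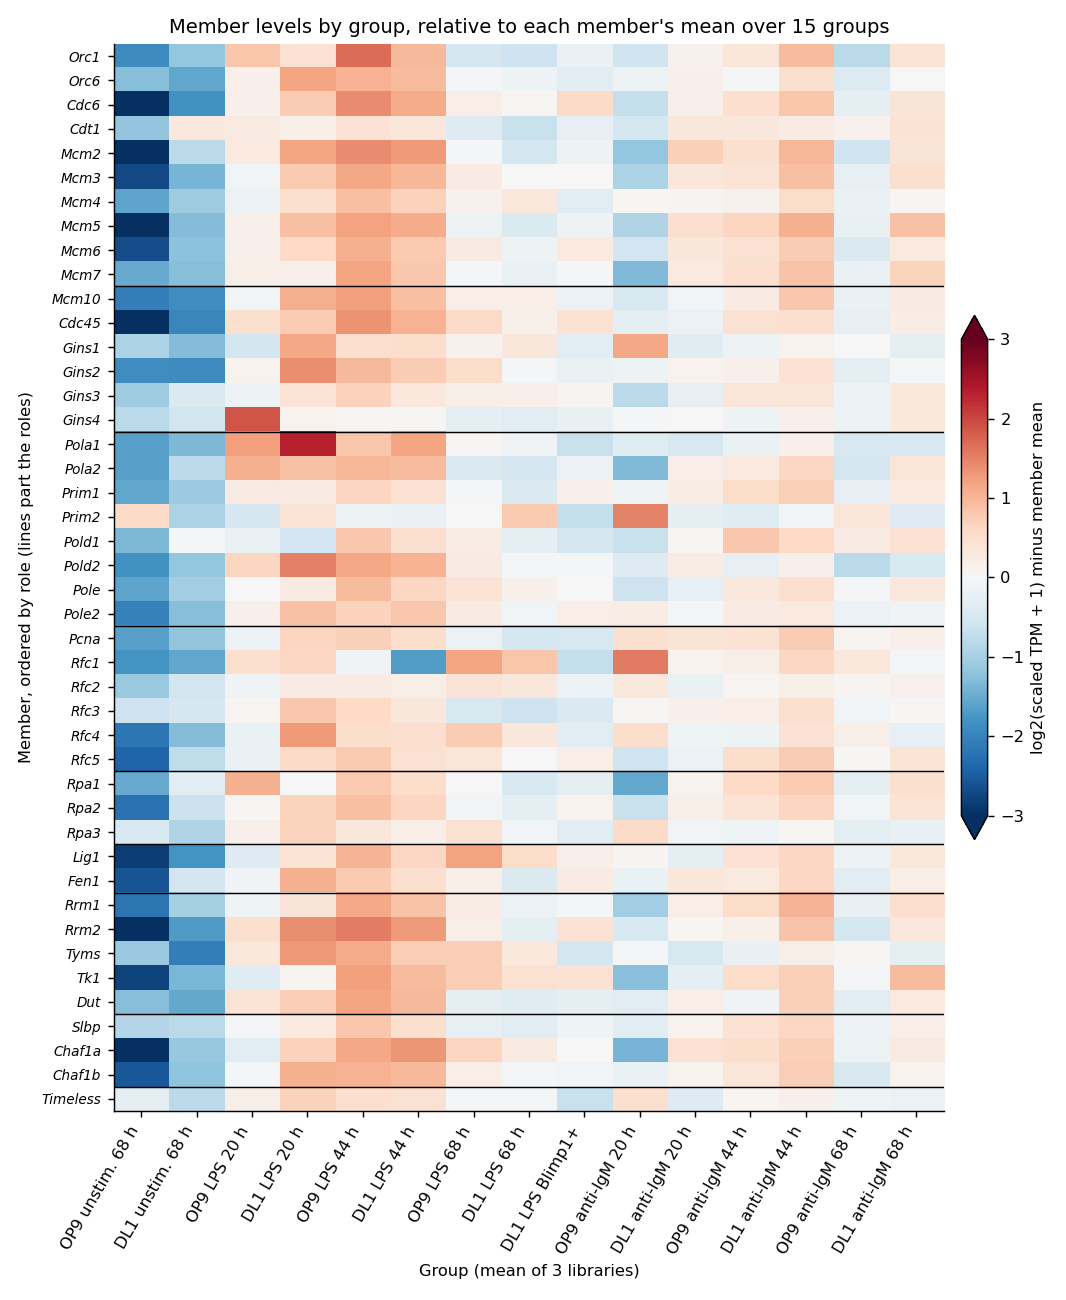
Group means of the 44 genes as log2(scaled TPM + 1) minus each gene's mean over the 15 groups, with genes ordered by role (rows) and groups of 3 libraries (columns). The unstimulated OP9 column is the darkest blue for most rows, and Prim2, Rfc1 and Gins4 break the pattern with high values in groups at 20 h.

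The genes differed widely in how far they moved. Rrm2, the regulated subunit of ribonucleotide reductase, had the widest range of group means, a log2 difference of 5.25 between 740 and 18.5 scaled TPM. Mcm2, a subunit of the helicase ring, followed with 4.89, then the loader Cdc6 with 4.75, Cdc45 with 4.68 and Mcm5 with 4.47. At the other end stood Rfc3 (1.45), Timeless (1.48), which guards stalled forks, the smallest replication protein A subunit Rpa3 (1.57), Cdt1 (1.62) and Slbp (1.69), which binds the stem-loop of histone mRNA. By role, the median range was 3.84 for the 2 Okazaki fragment genes, 3.64 for the 10 licensing genes, 3.60 for the 3 histone supply genes, 3.38 for the 5 nucleotide supply genes, 2.98 for the 6 helicase activation genes, 2.79 for the 6 clamp and loader genes, 2.61 for the 8 polymerase and primase genes and 2.59 for the 3 replication protein A genes. By mean over the 15 groups Pcna stood highest, at 345 scaled TPM, and Rfc1 lowest, at 6.10. Rfc1, the large subunit of the clamp loader, was low and uneven throughout, between 0 and 26.2 scaled TPM in single libraries. Prim2, the large primase subunit, was at 72.9 to 271 scaled TPM in the high-Actb libraries and at 25.4 to 62.7 in the others. Other members also differed in such libraries, in both directions. At 68 h of LPS on OP9, Rfc4 was at 710 in the high-Actb replicate 3 against 225 and 243 in replicates 1 and 2. There Tyms was at 449 against 167 and 127, and Mcm2 was lower, at 31.9 against 123 and 111. Whether the state of those libraries sets the values of these genes was not tested.

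Stimulation on OP9 was accompanied by a rise of most replication genes. At 68 h on OP9, LPS against no stimulus raised 39 of 44 genes and lowered 0, where 11.4% of the 15614 genes tested rose and 19.1% fell. Here and below a call means a limma adjusted p under 0.05 (Benjamini-Hochberg, over all genes tested). Counts of members at an unadjusted p under 0.05 come without the share of all genes at that threshold. They cannot be set against the shares of all genes called. Counts with 1 library left out come without the share of all genes called in that fit. A change in such a count may not be particular to the 44 genes. The median log2 fold change, on the scale of log2(scaled TPM + 1) used throughout, was 2.03 over the 44 genes and -0.21 over all genes. All 10 licensing genes, all 5 nucleotide supply genes, all 3 replication protein A genes, all 3 histone supply genes, both Okazaki fragment genes and 7 of 8 polymerase and primase genes rose. Genes not called were Gins1, Gins4, Prim2, Rfc3 and Timeless, none of which is a licensing gene.

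Rrm2 was at 322, 324 and 216 scaled TPM in the 3 OP9 LPS libraries at 68 h and at 13.7, 27.1 and 14.6 without stimulus, and it rose by 3.93 (SE 0.39, adjusted p = 5.58e-10 in limma). Cdc45, the helicase cofactor, stood at 51.9, 56.6 and 42.1 against 1.33, 1.6 and 4.38 and rose by 3.99 (SE 0.28). Lig1, the ligase that seals Okazaki fragments, stood at 99.6, 104 and 386 against 3.12, 10.7 and 19.5 and rose by 4.001 (SE 0.41), with its highest value in the high-Actb library. No library of these 3 genes overlapped between the groups. Members named for a call or a large change were picked from these same libraries. Their lack of overlap, here and below, therefore adds no support. How many of all genes lay apart was not counted in any comparison, so lack of overlap in other members adds none either. Chaf1a, the large chromatin assembly subunit, rose from 1.69 ± 0.734 to 34.2 ± 11.2 scaled TPM (SD, n = 3), by 3.69, and Mcm5 by 3.12. Pcna rose by 1.49 (SE 0.20), from 68.6, 110 and 124 scaled TPM to 251, 276 and 304. Slbp rose by 0.68 (SE 0.24, adjusted p = 0.0312 in limma), from 98.2, 182 and 176 to 210, 274 and 224, and this call was lost without OP9 LPS replicate 2 (adjusted p = 0.133) or unstimulated OP9 replicate 1 (0.255).

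Anti-IgM at 68 h on OP9 raised 32 genes and lowered 0, where 8.35% of all genes rose and 15.5% fell, with a median log2 fold change of 1.66 over the 44 genes and -0.07 over all. Rrm2 rose by 3.20 (SE 0.39), to 222, 194 and 114 scaled TPM. Cdc6 rose by 3.12 (SE 0.28), from 0.863, 2.63 and 3.11 to 22.5, 28.6 and 25.4, Cdc45 by 3.19 (SE 0.28), and Mcm5 by 3.05 (SE 0.39), from 5.32, 15.1 and 11.9 to 118, 116 and 52.7. The high-Actb library gave the lowest value of Mcm5 among the 3. Pcna rose by 1.74. Slbp rose by 0.71 (SE 0.24) with overlapping libraries, and this call was lost without anti-IgM replicate 1 or 2 or unstimulated replicate 1 (adjusted p = 0.167, 0.087 and 0.278 in limma). Both OP9 comparisons share the unstimulated libraries, in which the stromal marker sums were highest, and the part of those markers in these changes was not tested. Without the high-Actb libraries 38 genes rose with LPS and 35 with anti-IgM, where 39.6% and 38.9% of all genes were called in either direction. A fit of the compared groups alone called 21 and 6 members, all higher, and 10.1% and 1.89% of all genes. T cell markers were at 0.00307 to 0.00483% of TPM with LPS, 0.00772 to 0.0429% with anti-IgM and 0.00127 to 0.005% without stimulus. Without Lck, set apart after its values were seen, the other 7 were at 6.14e-05 to 9.84e-05%, 0.000597 to 0.000874% and 0.00047 to 0.00192%. These 7 were lower with LPS, and their anti-IgM values lay within the unstimulated range. The part of these markers was not tested either.

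On DL1, where the median in unstimulated cells at 68 h was higher than on OP9, LPS and anti-IgM also raised replication genes. Both comparisons share the unstimulated DL1 libraries. LPS at 68 h raised 19 genes and lowered 1, Cdt1, where 5.54% of all genes rose and 2.56% fell, with a median of 1.08 over the 44 genes and 0.01 over all. The 1 fall among the 44 is no larger a share than the 2.56% of all genes. Tyms, thymidylate synthase, rose by 2.26 (SE 0.43), from 48.8, 20.5 and 33.1 scaled TPM to 88.7, 134 and 331, the last in the high-Actb library. Cdc45 rose by 2.12 (SE 0.28), from 10.3, 6.64 and 6.76 to 43.4, 39 and 30.1. Lig1 rose by 2.19 (SE 0.41), from 22.1, 20.3 and 29 to 78.9, 79.7 and 216. Cdt1, a licensing factor that cells degrade once replication starts, fell by 1.04 (SE 0.30, adjusted p = 0.022 in limma), from 46.1, 46.2 and 39.2 to 29.6, 23.4 and 12.8. That call was lost without DL1 LPS replicate 3 (adjusted p = 0.216) or unstimulated DL1 replicate 1 (0.0732) or 2 (0.0868). Rfc1 rose by 2.67 (SE 0.83) from near 0, and this call was lost without any 1 library other than unstimulated replicate 2 (adjusted p up to 0.151). Pcna rose by 0.69 and Rrm2 by 1.43, but both calls were lost without unstimulated replicate 2 (adjusted p = 0.197 for Pcna and 0.113 for Rrm2) or without DL1 LPS replicate 1 (0.0575 and 0.0661). The call of Pcna was also lost without DL1 LPS replicate 3 (0.0992) and that of Rrm2 without replicate 2 (0.0747). Mcm5 differed by 0.74 (adjusted p = 0.277) and Slbp by 0.50 (adjusted p = 0.23).

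The count of 20 called genes fell to 11 without unstimulated DL1 replicate 2, to 3 in a fit of the 2 groups alone, where 1.998% of all genes were called, and to 8 on the TPM as deposited, which moved the median of all genes from 0.01 to -0.26. On that scale 411 genes of all rose and 559 fell, against 865 and 399 here.

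Anti-IgM at 68 h on DL1 raised 24 genes and lowered 0, where 6.05% of all genes rose and 3.45% fell, with a median of 1.25 over the 44 genes and -0.07 over all. Tk1, the salvage thymidine kinase, rose by 2.42 (SE 0.29, adjusted p = 4.74e-07 in limma), from 32.2, 18 and 46.5 scaled TPM to 164, 155 and 177. Cdc6 rose by 2.22 (SE 0.28), from 6.83, 6.92 and 10.6 to 41.3, 41.4 and 39.6. Mcm5 rose by 2.19 (SE 0.39), from 51, 37.2 and 45.9 to 194, 225 and 200, and Cdc45 by 2.18 (SE 0.28). Rrm2 rose by 2.05, Pcna by 1.35 and Slbp by 1.05, as did all 5 nucleotide supply genes and 8 of 10 licensing genes. The libraries of Tk1, Cdc6, Mcm5 and Cdc45 did not overlap between the groups. On the TPM as deposited 15 genes rose, and 470 of all genes rose and 979 fell against 944 and 538 here. A fit of the 2 groups alone called 37 members and 24.2% of all genes. T cell markers, Lck included, were at 0.0144 to 0.0189% of TPM in unstimulated DL1 cells, 0.00196 to 0.00626% with LPS and 0.0365 to 0.0415% with anti-IgM. Without Lck the other 7 were at 0.00106 to 0.00204%, 0.000179 to 0.000394% and 0.000486 to 0.000652%, lower with both stimuli. The part of these markers was not tested.

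**Figure D3:**
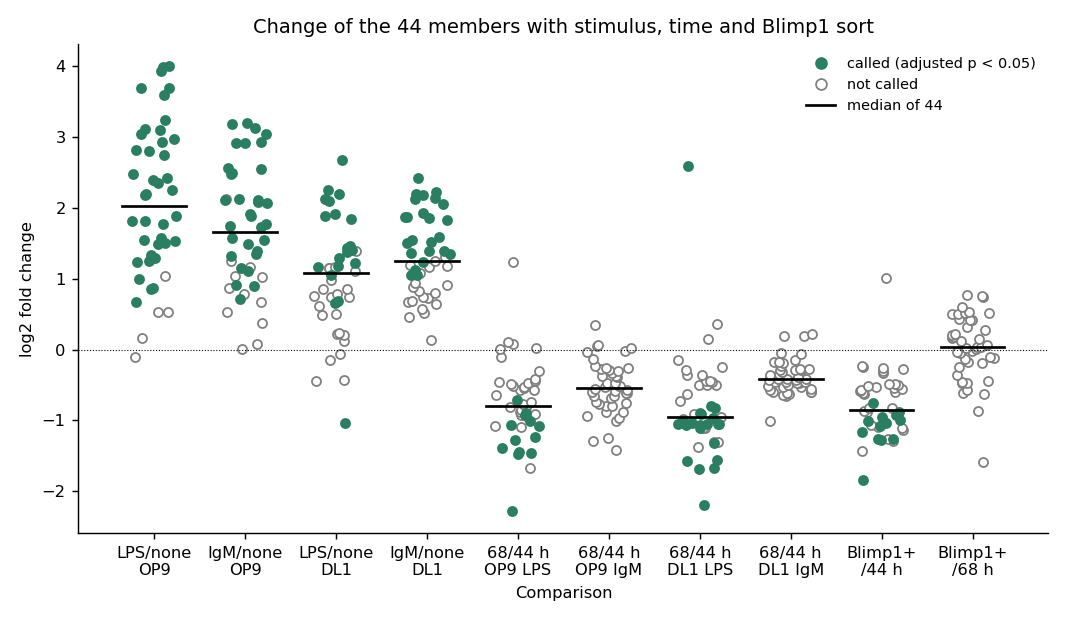
Log2 fold change of each of the 44 genes (points) in 10 comparisons of stimulus, time and Blimp1+ sort, with called genes filled and the median as a line. Points lie mostly above 0 for stimulus against none, and mostly below 0 for 68 against 44 h and for Blimp1+ cells against 44 h.

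Over time some of the replication genes rose on OP9 between 20 and 44 h of LPS. From 20 to 44 h on OP9, LPS raised 8 genes and lowered 0, where 1.06% of all genes rose and 0.685% fell. The median log2 difference was 0.90 over the 44 genes and 0.00 over all. Tk1 rose by 1.65 (SE 0.29, adjusted p = 0.00108 in limma), from 88.6, 42 and 67.7 scaled TPM to 219, 189 and 194. Cdc6 rose by 1.44 (SE 0.28), from 40.7, 49.2 and 14.2 to 88.1, 81.7 and 85.2. Rrm1, the large subunit of ribonucleotide reductase, rose by 1.39 and Mcm3 by 1.30, and neither gene's libraries overlapped between the times. Pcna rose by 0.90, and Rfc5, Mcm4 and Mcm7 completed the 8. Not called were Mcm5, with a difference of 1.08, Rrm2 with 1.22 and Slbp with 0.87 (adjusted p = 0.176, 0.107 and 0.0546 in limma), though Rrm2 (0.0322) and Slbp (0.0131) were without 20 h replicate 2. The count was 3 without 20 h replicate 3 or 44 h replicate 1, 5 without 44 h replicate 2, 4 without 44 h replicate 3, and 15 (14 higher) without 20 h replicate 2. Calls of Rrm1 (adjusted p = 0.0869), Mcm3 (0.0549) and Pcna (0.0724) were lost without 20 h replicate 3, those of Mcm3 (0.0507) and Pcna (0.0536) without 44 h replicate 1, and that of Rrm1 (0.0611) without 44 h replicate 3. Leaving the high-Actb libraries out of the fit, none of which is in these groups, gave 30 genes that rose, where 9.05% of all genes were called. The TPM as deposited gave 2 and 0.935% of all genes, and a fit of the 2 groups alone called 0 members and 1 of all genes.

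With anti-IgM on DL1, no gene was called between 20 and 44 h in limma, where 0.0512% of all genes were called, although 42 of 44 differences were above 0. The median was 0.54 over the 44 genes and 0.00 over all, and 15 genes had an unadjusted p under 0.05. Rrm2 was at 292, 219 and 288 scaled TPM at 20 h and 461, 456 and 474 at 44 h, a difference of 0.81 (SE 0.39). Slbp was at 322, 296 and 293 and then 420, 438 and 450, a difference of 0.52 (SE 0.24). In neither gene did the libraries overlap. Mcm5 differed by 0.55 and Pcna by 0.36. Fits of the compared groups alone called 5 members and 0.98% of all genes, and fits without the high-Actb libraries 3 and 1.04%.

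From 44 to 68 h with LPS some of the replication genes fell on each stroma. On OP9, 13 genes fell and 0 rose, where 4.02% of all genes fell and 2.88% rose, and the median was -0.80 over the 44 genes and 0.06 over all. Orc1, the origin recognition subunit that comes and goes with the cell cycle, fell by 2.28 (SE 0.39, adjusted p = 0.000181 in limma), from 33.7, 27.7 and 48.9 scaled TPM to 8.51, 10.7 and 2.91. Dut, which removes dUTP, fell by 1.46 (SE 0.29), from 271, 314 and 307 to 92.3, 116 and 116. Rrm2 fell by 1.38 (SE 0.39), from 713, 709 and 798 to 322, 324 and 216. Slbp fell by 1.06 (SE 0.24), from 438, 499 and 538 to 210, 274 and 224. Pcna fell by 0.89 (SE 0.20), from 523, 498 and 516 to 251, 276 and 304. The libraries of these 5 genes did not overlap between the times. Pola2, the accessory subunit of polymerase alpha, and Mcm5 fell by 1.47 and 1.44.

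The count of 13 was 7 without 44 h replicate 1, 44 h replicate 3 or 68 h replicate 3, and 8 without 44 h replicate 2. Calls of Pola2, Mcm5 and Rrm2 were lost without 68 h replicate 3, the high-Actb library (adjusted p = 0.154, 0.172 and 0.131). They were also lost without 44 h replicate 1 (0.0714, 0.0697 and 0.06) or replicate 3 (0.0614, 0.0552 and 0.0839), and those of Pola2 and Rrm2 without replicate 2 (0.0824 and 0.0574). Those of Orc1, Dut, Pcna and Slbp held under each of the 6 left-out libraries. With all high-Actb libraries left out 23 genes fell, where 12.9% of all genes were called, and with the TPM as deposited 2, where 3.51% were.

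On DL1, 20 genes fell and 1 rose from 44 to 68 h of LPS, where 4.14% of all genes fell and 3% rose, with a median of -0.96 over the 44 genes and 0.13 over all. The 1 rise among the 44 is no larger a share than the 3% of all genes. Of the 10 licensing genes 8 fell, of the 5 nucleotide supply genes 3, and of the 3 histone supply genes 2. Mcm2 fell by 2.19 (SE 0.57), from 211, 252 and 202 scaled TPM to 87.6, 86.6 and 13.7, the last in the high-Actb library. Orc1 fell by 1.68 (SE 0.39), from 25.9, 19.4 and 21.5 to 8.84, 7.99 and 3.26. Rrm2 fell by 1.58 (SE 0.39), from 630, 630 and 585 to 246, 256 and 137, and Mcm5 by 1.68 (SE 0.39). Pcna fell by 1.045 (SE 0.20, adjusted p = 0.000625 in limma), from 464, 432 and 459 to 218, 199 and 239. Libraries of these 5 genes did not overlap between the times. Slbp fell by 0.80, a call that each of the 6 left-out libraries ended (adjusted p from 0.0512 to 0.136). Rfc1, the gene that rose, went from 0.809 ± 0.805 to 9.38 ± 2.78 scaled TPM (SD, n = 3), and this call too was lost without any 1 library (0.0691 to 0.192).

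The count of 21 was 5 without 68 h replicate 3, and 9, 9 and 10 without 44 h replicates 1, 2 and 3. Calls of Mcm2, Mcm5, Orc1 and Rrm2 were lost without 68 h replicate 3 (adjusted p = 0.221, 0.0815, 0.0711 and 0.0807), and that of Mcm2 without 44 h replicate 2 (0.0592). With all high-Actb libraries left out, 26 genes fell and 0 rose, where 13.4% of all genes were called. A fit of the 2 groups alone called 1 member, as lower, and 1.68% of all genes, and 3 members fell with the TPM as deposited, where 315 of all genes rose and 288 fell against 468 and 647 here.

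With anti-IgM no gene was called from 44 to 68 h in limma on OP9, where 0.0128% of all genes were called, or on DL1, where 0.179% were. The medians were -0.55 and -0.42 over the 44 genes and 0.06 and 0.00 over all, and 14 and 2 genes had an unadjusted p under 0.05. On DL1, Tk1 was at 133, 147 and 146 scaled TPM at 44 h and at 164, 155 and 177 at 68 h, and Mcm5 at 198, 234 and 275 and then 194, 225 and 200. Pcna was at 552, 515 and 524 and then at 358, 301 and 383, without overlap, a difference of -0.62 (SE 0.20, adjusted p = 0.256 in limma). Rrm2 differed by -0.55 and Slbp by -0.42 on DL1, and on OP9 Mcm5 by -0.96, Rrm2 by -0.74, Pcna by -0.37 and Slbp by -0.65. On DL1, fits of the compared groups alone called 10 genes as lower and 7.44% of all genes, and fits without the high-Actb libraries called 1, Pcna, and 3.43% of all. On OP9 both of these settings called 0. Over all genes on DL1, 20 were higher and 8 lower at 68 h, against 5 and 9 on the TPM as deposited.

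**Figure D4:**
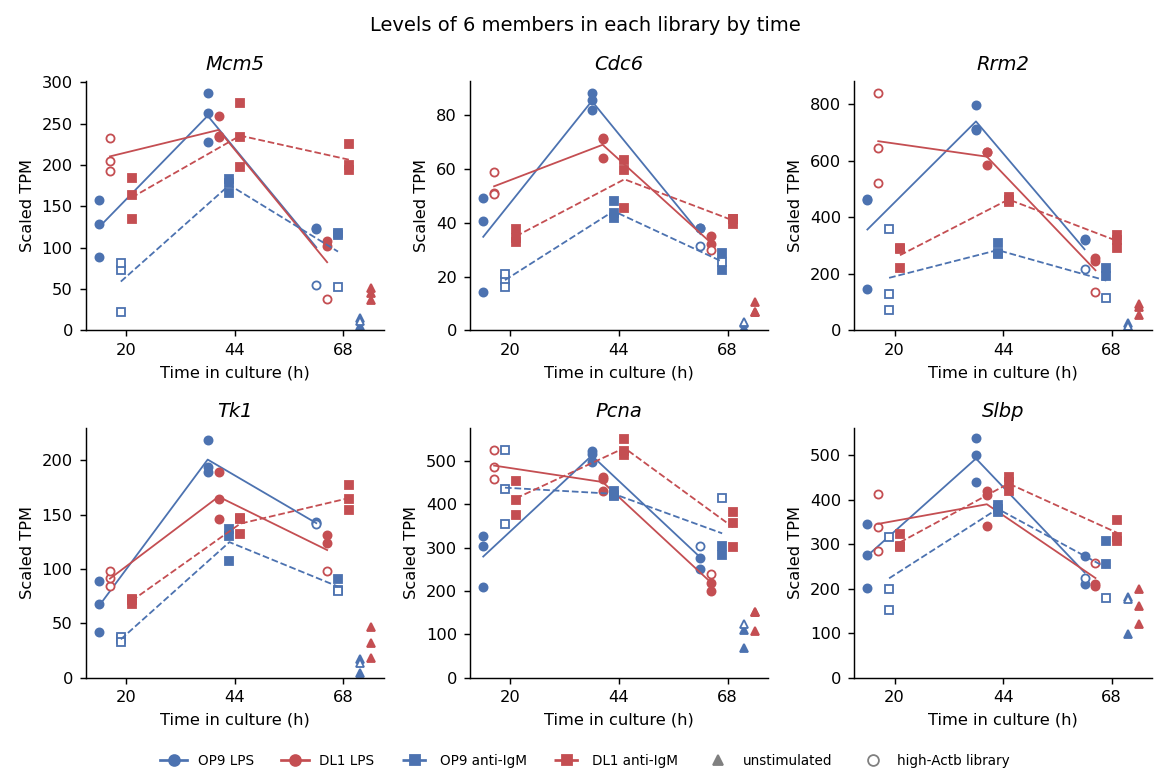
Scaled TPM of Mcm5, Cdc6, Rrm2, Tk1, Pcna and Slbp in each library against hours in culture, with points set side by side within a time, lines through group means, colours for the stroma, squares for anti-IgM, triangles for unstimulated libraries and open symbols for high-Actb libraries. LPS lines peak at 44 h on OP9, and the DL1 anti-IgM line stays highest of the 68 h groups for Mcm5.

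At 44 h on OP9, some of the replication transcripts were higher with LPS than with anti-IgM. With LPS 7 genes were higher and 0 lower, where 4.9% of all genes were higher and 3.73% lower, with a median of 0.60 over the 44 genes and -0.04 over all. Dut was at 271, 314 and 307 scaled TPM with LPS and at 121, 109 and 135 with anti-IgM, and was higher by 1.29 (SE 0.29, adjusted p = 0.00266 in limma). Rrm2 was at 713, 709 and 798 against 270, 276 and 308, higher by 1.38 (SE 0.39). Pold2, the small subunit of polymerase delta, was at 348, 328 and 351 against 130, 122 and 131, higher by 1.42 (SE 0.40). Orc1 was at 33.7, 27.7 and 48.9 against 14.4, 11.3 and 16.7, higher by 1.30 (SE 0.39). Cdc6, Cdc45 and Gins2 completed the 7. None of the 7 overlapped between the stimuli, which adds no support because all 7 were picked by their calls. Pcna was at 523, 498 and 516 against 419, 423 and 431, a difference of 0.27 (SE 0.20, adjusted p = 0.551 in limma). Mcm5 differed by 0.55 and Slbp by 0.37. T cell markers were at 0.00221 to 0.00344% of TPM with LPS and 0.0323 to 0.0347% with anti-IgM, and without Lck, set apart after its values were seen, the other 7 were at 0.000133 to 0.00018% and 0.000557 to 0.0012%. B cell markers were at 0.205 to 0.248% with LPS and 0.533 to 0.542% with anti-IgM. The part of these markers in the differences was not tested.

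The count of 7 was 1 without anti-IgM replicate 1 or 2 or LPS replicate 1 or 3, 2 without LPS replicate 2 and 3 without anti-IgM replicate 3. The call of Pold2 was lost without any 1 of the 6 (adjusted p from 0.0507 to 0.0682), that of Rrm2 without any but anti-IgM replicate 3 (up to 0.0695) and that of Orc1 without any but LPS replicate 2 (up to 0.167), while Dut was called each time. A fit of the 2 groups alone called 30 members, where 32% of all genes were called, and the fit without high-Actb libraries 18, where 19.7% were. The TPM as deposited called 2, where 262 of all genes were higher and 600 lower against 765 and 583 here.

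At 68 h on OP9 only Gins2 was higher with LPS (0.82, SE 0.25, adjusted p = 0.0464 in limma), where 2.82% of all genes were higher and 1.74% lower. This 1 of 44 members is no larger a share than that of all genes. The median was 0.39 over the 44 genes and -0.09 over all. Gins2, of the helicase-activating Gins complex, was at 124, 105 and 206 scaled TPM against 64.5, 73.4 and 101. The call was lost without anti-IgM replicate 1 (adjusted p = 0.167) or 2 (0.109) or LPS replicate 1 (0.0765) or 3 (0.311). The count was 0 without any of these, 2 without anti-IgM replicate 3 and 3 without the high-Actb libraries, where 7.92% of all genes were called. T cell markers were at 0.00307 to 0.00483% of TPM with LPS and 0.00772 to 0.0429% with anti-IgM. Without Lck the other 7 were at 6.14e-05 to 9.84e-05% and 0.000597 to 0.000874%, and their part was not tested. Rrm2 differed by 0.73, Mcm5 by 0.07, Pcna by -0.25 and Slbp by -0.04, none of them called.

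On DL1 none of the 44 genes was called between the stimuli at 44 h, and those called at 68 h were all lower with LPS. At 44 h, no gene was called in limma, where 2.91% of all genes were, the median was 0.09 over the 44 genes and 0.00 over all, and 3 genes had an unadjusted p under 0.05. The median was -0.07 on the TPM as deposited. A fit of these groups alone called 6 genes higher with LPS and 2 lower, where 15.6% of all genes were called, and the fit without high-Actb libraries 1, where 8.7% were. Rrm2 was at 630, 630 and 585 with LPS and 461, 456 and 474 with anti-IgM, a difference of 0.41 (SE 0.39). Pcna was at 464, 432 and 459 against 552, 515 and 524, a difference of -0.23 (SE 0.20). Mcm5 differed by 0.05 and Slbp by -0.17.

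At 68 h on DL1, 5 genes were lower with LPS than with anti-IgM and 0 higher, where 1.78% of all genes were lower and 2.61% higher. The median was -0.35 over the 44 genes and 0.08 over all. Mcm5 was at 108, 102 and 38.2 scaled TPM with LPS and 194, 225 and 200 with anti-IgM (-1.45, SE 0.39, adjusted p = 0.0215 in limma). Cdt1 was at 29.6, 23.4 and 12.8 against 42.9, 52.5 and 49.4 (-1.18, SE 0.30). Mcm7, also of the helicase ring, was at 121, 120 and 85.7 against 192, 220 and 186 (-0.88, SE 0.27), and the catalytic primase subunit Prim1 at 47.5, 50.8 and 37.7 against 82.1, 70.2 and 73.8 (-0.73, SE 0.21). Pcna was at 218, 199 and 239 against 358, 301 and 383 (-0.66, SE 0.20). The libraries of all 5 lay apart between the stimuli. Rrm2 differed by -0.62 (adjusted p = 0.418) and Slbp by -0.54 (0.235). T cell markers were at 0.00196 to 0.00626% of TPM with LPS and 0.0365 to 0.0415% with anti-IgM, and without Lck at 0.000179 to 0.000394% and 0.000486 to 0.000652%, and their part in the differences was not tested.

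These 5 calls, Mcm5, Cdt1, Mcm7, Prim1 and Pcna, moved with single libraries. Without 1 library the count was 0 (anti-IgM replicate 2 or 3, LPS replicate 3), 1 (anti-IgM replicate 1), 2 (LPS replicate 1) or 3 (LPS replicate 2). The call of Mcm5 was lost without any anti-IgM library (adjusted p up to 0.0932) or LPS replicate 3 (0.287), the high-Actb library, and that of Cdt1 without anti-IgM replicate 2 (0.0718) or 3 (0.0561) or LPS replicate 3 (0.184). Those of Mcm7 and Pcna were lost without any 1 of the 6 (up to 0.294 and 0.197), and that of Prim1 without any but LPS replicate 2 (up to 0.232). The count was 0 with the TPM as deposited or the compared groups alone, where 1.2% of all genes were called in the latter, and 6 without the high-Actb libraries, where 7.61% were.

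Without a stimulus, DL1 cells carried more of many replication transcripts than OP9 cells. Unstimulated DL1 cells at 68 h had 19 genes higher and 0 lower than unstimulated OP9 cells, where 8.84% of all genes were higher and 17.6% lower. The median was 0.82 over the 44 genes and -0.19 over all. Of the 10 licensing genes 6 rose, with Mcm2 at 68.7, 41.4 and 43.1 scaled TPM on DL1 against 6.57, 9.99 and 5.48 on OP9 (2.64, SE 0.57, adjusted p = 0.000566 in limma). Mcm5 was at 51, 37.2 and 45.9 against 5.32, 15.1 and 11.9 (2.05, SE 0.39). Rrm2 was at 84.1, 54.9 and 93.4 against 13.7, 27.1 and 14.6 (2.04, SE 0.39), and Fen1, the flap endonuclease of Okazaki fragments, at 144, 80.7 and 93.9 against 21.3, 33 and 23.1 (1.98, SE 0.45). In these 4 genes the libraries did not overlap, and no left-out library ended the call. Both Okazaki fragment genes, 3 of 5 nucleotide supply genes and 2 of 3 histone supply genes rose, while 1 of 8 polymerase and primase genes, Pold1, and 1 of 6 helicase activation genes, Cdc45, did.

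Pcna was at 152, 107 and 152 on DL1 and 68.6, 110 and 124 on OP9, not called (0.46, SE 0.20, adjusted p = 0.081 in limma), but called without unstimulated DL1 replicate 2 (0.0326) or OP9 replicate 3 (0.0191). Slbp differed by 0.10 (SE 0.24).

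The unstimulated OP9 libraries are those with stromal markers at 0.126 to 1.76% of TPM, against 0.0197 to 0.0466% on DL1, and with B cell markers at 0.043 to 0.229% against 0.585 to 0.699%. Myeloid markers were at 0.00281 to 0.0145% against at most 0.000621%. T cell markers were higher on DL1, at 0.0144 to 0.0189% against 0.00127 to 0.005%, while the 7 other than Lck overlapped, at 0.00106 to 0.00204% against 0.00047 to 0.00192%. The part of these markers in the difference was not tested. On the TPM as deposited the median of all genes moved from -0.19 to 0.15 and 22 members rose, with 2004 of all genes higher and 1982 lower against 1380 and 2750 here. A fit of these 2 groups alone called 7 members and 7.09% of all genes.

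**Figure D5:**
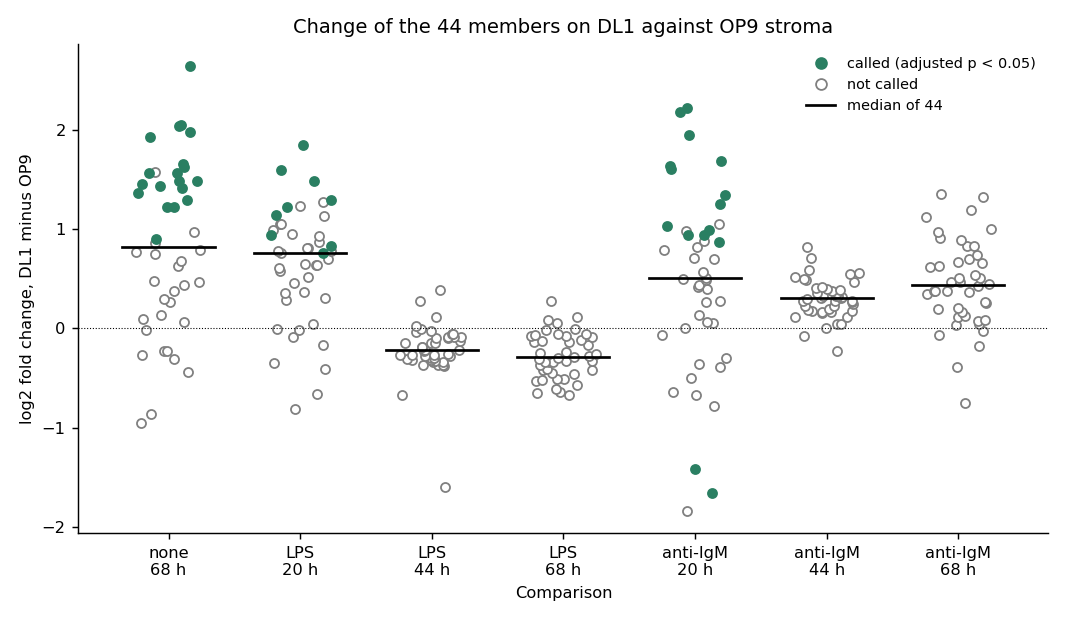
Log2 fold change of the 44 genes (points) on DL1 against OP9 in 7 comparisons, with called genes filled and the median as a line. The medians are 0.82 without stimulus and 0.76 and 0.51 at 20 h, and lie between -0.29 and 0.44 at 44 and 68 h, where no gene was called.

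At 20 h with LPS, 9 genes were higher on DL1 and 0 lower, where 4.41% of all genes were higher and 4.43% lower, with a median of 0.76 over the 44 genes and 0.00 over all. Gins2 was at 242, 277 and 256 scaled TPM on DL1 against 95.3, 116 and 104 on OP9 (1.29, SE 0.25, adjusted p = 0.000886 in limma). Gins1 was at 48.7, 95.6 and 77.9 against 8.5, 26.7 and 30.1 (1.84, SE 0.49), and Rfc4, a clamp loader subunit, at 445, 640 and 600 against 154, 191 and 263 (1.48, SE 0.46). Pola1, the catalytic subunit of polymerase alpha, was at 139, 186 and 205 against 43.2, 23.6 and 180, with overlap (1.59, SE 0.44). Pcna was at 486, 458 and 525 against 303, 326 and 209 (0.83, SE 0.20). Chaf1b, Mcm10, Mcm3 and Rfc3 were the others. All 3 DL1 libraries are high-Actb libraries and none of the OP9 libraries is, so ligand and library state cannot be told apart.

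The count was 2 without DL1 replicate 2 or 3, 16 (15 higher) without OP9 replicate 2, 4 on the TPM as deposited, where 414 of all genes were higher and 520 lower against 689 and 692, and 1 in a fit of the 2 groups alone, where 1.29% of all genes were called. Without DL1 replicate 2 or 3 or OP9 replicate 1, the calls of Gins1 (adjusted p = 0.0875, 0.0594 and 0.122), Pola1 (0.0701, 0.0788 and 0.076) and Rfc4 (0.127, 0.107 and 0.117) were lost. Those of Pola1 (0.153) and Rfc4 (0.0597) were also lost without OP9 replicate 2, and that of Rfc4 (0.0516) without DL1 replicate 1. Rrm2, at 841, 523 and 645 against 464, 461 and 147, was not called (adjusted p = 0.0803) but was without OP9 replicate 1 (0.0472) or 2 (0.0343). Mcm5 differed by 0.78 and Slbp by 0.35, neither of them called.

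At 20 h with anti-IgM, 13 genes were higher on DL1 and 2 lower, where 10.2% of all genes were higher and 10.3% lower, with a median of 0.51 over the 44 genes and -0.01 over all. The 2 lower members are a smaller share than the 10.3% of all genes. Here the OP9 group is the one made up of high-Actb libraries, and again ligand and library state cannot be told apart. Mcm2 was at 120, 139 and 188 scaled TPM on DL1 and 10.2, 66.8 and 44.1 on OP9 (2.18, SE 0.57, adjusted p = 0.011 in limma), and Mcm5 at 134, 164 and 184 against 22.8, 73.4 and 81.3 (1.61, SE 0.39). Rpa1, the large subunit of replication protein A, was at 157, 165 and 224 against 7.37, 93.8 and 72.5 (2.22, SE 0.70). Chaf1a was higher by 1.95 and Pola2 by 1.68, and 7 of the 10 licensing genes were higher. The lower genes were Prim2, at 52, 49.4 and 52 against 271, 90.8 and 176 (-1.65, SE 0.57), and Gins1, at 19.3, 26 and 29 against 104, 34.7 and 82.1 (-1.42, SE 0.49). Gins1 was higher in the group of high-Actb libraries at 20 h with either stimulus, on DL1 with LPS and on OP9 with anti-IgM. Most members were instead higher on DL1 with either stimulus, 36 of 44 with LPS and 33 with anti-IgM, called or not. Pcna was at 455, 376 and 411 against 526, 355 and 434, with overlap.

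Without OP9 replicate 1 the count was 6, and the calls of Mcm2 (adjusted p = 0.128), Mcm5 (0.0856), Rpa1 (0.297), Chaf1a (0.0756), Pola2 (0.089), Prim2 (0.2) and Gins1 (0.206) were lost. Rrm2 and Slbp, with differences of 0.82 and 0.51, were called only without that library among the 6 (0.017 and 0.0482). The count was 7 without DL1 replicate 2 or 3. Without DL1 replicate 1, 2 or 3 the calls of Rpa1 (adjusted p = 0.0568, 0.0604 and 0.0777), Prim2 (0.0842, 0.0933 and 0.0829) and Gins1 (0.124, 0.0846 and 0.0672) were lost, and without OP9 replicate 3 those of Prim2 (0.0782) and Gins1 (0.101). The TPM as deposited moved the median of all genes to 0.25 and gave 13 higher members, with 1659 of all genes higher and 1013 lower against 1591 and 1616, and a fit of the 2 groups alone called 2 members and 5.41% of all genes.

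At 44 and 68 h no gene was called between the stromas in limma under either stimulus. With LPS, 40 of 44 differences were below 0 at both times, with medians of -0.22 at 44 h and -0.29 at 68 h over the 44 genes and 0.00 and 0.05 over all. An unadjusted p under 0.05 was seen for 0 and 1 genes, and 0.16% and 0.064% of all genes were called. At 44 h Rrm2 was at 630, 630 and 585 scaled TPM on DL1 against 713, 709 and 798 on OP9, without overlap (-0.26, SE 0.39), Slbp at 409, 340 and 419 against 438, 499 and 538 (-0.34, SE 0.24) and Mcm5 at 235, 259 and 233 against 288, 228 and 263 (-0.09, SE 0.39). Pcna differed by -0.18. At 68 h Mcm5 differed by -0.33, Rrm2 by -0.46, Pcna by -0.34 and Slbp by -0.08. None of the other settings tried called any of the 44 genes in either comparison. Over all genes at 44 h, 22 were higher on DL1 and 3 lower, against 11 and 5 on the TPM as deposited.

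With anti-IgM 42 of 44 differences were above 0 at 44 h and 39 at 68 h, none of them called. Here and in other counts of signs, the 44 genes come from the same libraries, so their signs are not separate observations. The medians were 0.30 and 0.44 over the 44 genes and -0.01 and -0.12 over all. An unadjusted p under 0.05 was seen for 1 and 14 of the 44 genes. At the stricter adjusted threshold 0.897% and 1.73% of all genes were called. At 44 h Rrm2 was at 461, 456 and 474 on DL1 against 270, 276 and 308 on OP9 (0.70, SE 0.39), and Pcna at 552, 515 and 524 against 419, 423 and 431 (0.32, SE 0.20). At 68 h Mcm5 was at 194, 225 and 200 against 118, 116 and 52.7 (1.19, SE 0.39, adjusted p = 0.0928 in limma). None of these overlapped between the stromas. At 44 h Mcm5 differed by 0.41 and Slbp by 0.20, and at 68 h Rrm2 by 0.89, Pcna by 0.07 and Slbp by 0.43. Over all genes at 44 h, 84 were higher on DL1 and 56 lower, against 9 and 17 on the TPM as deposited. A fit of the 2 groups alone called 14 members at 44 h, all higher on DL1, where 16% of all genes were called. At 68 h 2 genes were called without OP9 anti-IgM replicate 1, and 1 without the high-Actb libraries, where 5.86% of all were.

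The DL1 difference under LPS minus that under anti-IgM was tested directly and called for no gene in limma at 44 h or 68 h, where 0.0769% and 0.199% of all genes were called. The median of this difference of differences was -0.50 and -0.72 over the 44 genes and 0.02 and 0.17 over all. It was below 0 for 41 of 44 genes at both times, and 2 and 14 genes had an unadjusted p under 0.05. For Mcm5 at 68 h it was -1.52 (SE 0.54, adjusted p = 0.228) and for Rrm2 -1.35 (SE 0.55, adjusted p = 0.284), with -0.41 for Pcna and -0.50 for Slbp. At 44 h it was -0.97 for Rrm2, -0.50 for Mcm5, -0.50 for Pcna and -0.54 for Slbp. A fit of the 4 groups alone called 20 genes at 44 h, all below 0, among them Rrm2, Pcna and Slbp, where 8.04% of all genes were called, and the other settings tried called none of the 44 at either time. Over all genes it was above 0 in 6 calls and below 0 in 6 at 44 h and in 9 and 22 at 68 h, against 1 and 2, and 20 and 30, on the TPM as deposited.

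Blimp1+ cells carried plasma cell markers at 0.283 to 0.318% of TPM against at most 0.0672% in all other libraries. These markers include Prdm1, which encodes Blimp1, so their sum is not independent of the sort. Some of the replication transcripts were lower in Blimp1+ cells than in the unsorted DL1 LPS culture at 44 h. B cell markers were at 0.393 to 0.412% against 0.161 to 0.173% in that culture, and their part was not tested. Against that culture 13 genes fell and 0 rose, where 5.03% of all genes fell and 7.03% rose, with a median of -0.85 over the 44 genes and 0.09 over all. Of the 10 licensing genes 6 fell. Pola1 was at 20.5, 22.8 and 20.3 scaled TPM in Blimp1+ cells against 97.3, 68.6 and 71.1 (-1.83, SE 0.44, adjusted p = 0.0036 in limma). Dut was at 99.2, 81.9 and 145 against 293, 189 and 295 (-1.26, SE 0.29), and Pcna at 225, 228 and 221 against 464, 432 and 459 (-1.002, SE 0.20). Orc6 fell by 1.28 and Mcm5 by 1.26. Rrm2, at 350, 349 and 341 against 630, 630 and 585, was not called (-0.83, SE 0.39), and Slbp differed by -0.59. The libraries of Rrm2 lay apart, as did those of most members, called or not, but the share of all genes lying apart was not counted.

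The count of 13 was 5, 7 and 5 without 44 h replicates 1, 2 and 3 and 8, 6 and 5 without Blimp1+ replicates 1, 2 and 3. The call of Mcm5 was lost without any of the 6 (adjusted p from 0.0549 to 0.0911), and that of Orc6 without 44 h replicate 1 (0.0564) or 3 (0.0766) or Blimp1+ replicate 2 (0.0745). Pola1, Dut and Pcna stayed called. The fit of these groups alone called 37 members, where 33.7% of all genes were called, and the fit without the high-Actb libraries 28, where 24.4% were. The TPM as deposited called 13, with 477 of all genes higher and 919 lower against 1097 and 785 here.

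Against the unsorted DL1 LPS culture at 68 h no gene was called in limma, where 2.84% of all genes were, with 1 gene at an unadjusted p under 0.05. The median was 0.04 over the 44 genes, -0.01 over all and -0.23 over the 44 genes on the TPM as deposited. Pcna was at 225, 228 and 221 in Blimp1+ cells against 218, 199 and 239 (0.04, SE 0.20), and Rrm2 at 350, 349 and 341 against 246, 256 and 137 (0.75, SE 0.39). Mcm5 differed by 0.42 and Slbp by 0.20. Over all genes 400 were higher in Blimp1+ cells and 44 lower, against 220 and 123 on the TPM as deposited. Because the time of the sort is not given, neither culture is a time-matched control.

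Genes of the same pathways outside the 44 were counted from 3 lists, of 36 other replication genes, 27 other nucleotide synthesis genes and 13 E2F and retinoblastoma family genes. With LPS against no stimulus on OP9, 22 of 36, 12 of 27 and 4 of 13 rose and 0 fell, with medians of 1.22, 0.77 and -0.28, where 11.4% of all genes rose and 19.1% fell and the median of all was -0.21. Asf1b, a histone chaperone, rose by 4.06 (SE 0.37), from 14.0 ± 13.1 to 190 ± 17.5 scaled TPM (SD, n = 3), and E2f2 by 2.89 (SE 0.40), from 1.81 ± 1.65 to 17.8 ± 5.35. Anti-IgM on OP9 raised 20, 9 and 2 of them and lowered 0, where 8.35% of all genes rose and 15.5% fell. Without stimulus, DL1 cells had 8, 9 and 2 genes higher than OP9 cells and 0, 0 and 1 lower, where 8.84% of all genes were higher and 17.6% lower. E2f2 was higher by 2.47 (SE 0.40) and E2f4 by 1.42 (SE 0.38), and E2f1 was lower by -1.70 (SE 0.52), at 2.27 ± 0.68 against 11.1 ± 6.62 scaled TPM (SD, n = 3).

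At 44 h on OP9, 12 of the 27 nucleotide synthesis genes were higher with LPS than with anti-IgM and 2 lower, and of the 36 other replication genes 2 were higher and 1 lower, where 4.9% of all genes were higher and 3.73% lower. Gart, an enzyme of purine synthesis, was at 278 ± 12.2 scaled TPM with LPS and 103 ± 2.08 with anti-IgM (1.43, SE 0.34), and Cad, which starts pyrimidine synthesis, at 37.2 ± 2.5 and 11.1 ± 0.664 (1.66, SE 0.47; SD, n = 3). From 44 to 68 h of LPS, 13 of 27 fell and 0 rose on OP9, where 4.02% of all genes fell and 2.88% rose, and 14 fell and 1 rose on DL1, where 4.14% fell and 3% rose. Shmt1, a folate cycle enzyme, fell by 2.13 (SE 0.27) on OP9, from 267 ± 20.2 to 61.1 ± 13.6 scaled TPM. In Blimp1+ cells against DL1 LPS at 44 h, 15 of 27 were lower and 2 higher, where 5.03% of all genes fell and 7.03% rose. Gart was lower, at 44.2 ± 6.73 against 267 ± 24.4 (-2.57, SE 0.34), while E2f2 was higher by 1.66 (SE 0.40). With anti-IgM, DL1 against OP9 raised 3 of 27 at 44 h (Shmt1, Nme1, Adsl) and 2 at 68 h (Nme1, Impdh2), where 0.897% and 1.73% of all genes were called. In those comparisons none of the 44 members was called.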

How the data were processed

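Gene expression was measured by polyA RNA-seq in 45 libraries. The TPM table was deposited by the authors, and kallisto, limma, mm10 and GRCm38 appear, with no version, in the submitters' processing notes. The transcript set is not given in the sources used here. A second table deposited by the authors holds log2 values per library, from which depth was read and which served as an alternative. Each library's TPM was scaled by a median-ratio size factor (0.436 to 1.42), then log2 was taken after adding a pseudocount of 1, which understates the change of low genes. Genes with at least 1 TPM in at least 3 libraries were tested (15614 of 30317), among them all 44 members. A single limma 3.58.1 model (R 4.3.3, trend and robust) with 15 group means gave 25 comparisons, each with Benjamini-Hochberg adjustment over all genes tested. No column of per-sample values was left unused (0).

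Named members were Mcm5, Pcna, Rrm2 and Slbp in every comparison plus the called members that changed most (at most 4 in each direction), and others were named by role. The members and lists were chosen with earlier results of these data known. The test was tried on simulated data.

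Same-numbered libraries deviated together, with every correlation over 0.1, in 4 comparisons at 68 h, in each of which replicate 3 stands apart in its Actb level, and not in the others. The labels do not say what a number marks. Alternatives were the unscaled TPM, the log2 table, a smaller pseudocount (0.1), testing every gene, requiring 5 TPM, a replicate block, fitting the compared groups alone, dropping the 10 high-Actb libraries, and dropping each library in turn. A group left with 2 libraries borrows its spread from the other groups.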

Additional observations from a re-analysis of the deposited data

How the results depend on the processing

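Counts of called members are given against those in the report. For many settings the share of all genes called is not given beside the count. A move in such a count cannot be told from a move in calls over all genes. With the compared groups fitted alone the count was 7 for DL1 against OP9 without stimulus, 1 with LPS at 20 h and 2 and 14 with anti-IgM at 20 and 44 h. It was 21 for LPS and 6 for anti-IgM against no stimulus on OP9, and 3 and 37 on DL1. For LPS against anti-IgM it was 30 and 0 on OP9 at 44 and 68 h, and 8 and 0 on DL1. From 20 to 44 h it was 0 for OP9 LPS and 5 for DL1 anti-IgM, and from 44 to 68 h on DL1 it was 1 for LPS and 10 for anti-IgM. It was 37 for Blimp1+ cells against 44 h and 20 for the difference of differences at 44 h. This fit has fewer libraries to estimate the spread from.

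On the TPM as deposited the count was 4 for DL1 with LPS at 20 h, 8 and 15 for LPS and anti-IgM against no stimulus on DL1, 2 for LPS against anti-IgM on OP9 at 44 h, 0 on DL1 at 68 h, 2 from 20 to 44 h on OP9 with LPS, and 2 and 3 from 44 to 68 h with LPS on OP9 and DL1. With the authors' log2 table it was 4 and 24 for DL1 with LPS and anti-IgM at 20 h, 7 for LPS against no stimulus on DL1, 2, 0 and 1 for LPS against anti-IgM (OP9 at 44 and 68 h, DL1 at 68 h), 3 from 20 to 44 h, 3 and 6 from 44 to 68 h, and 8 for Blimp1+ cells against 44 h. For LPS against anti-IgM (OP9 at 44 and 68 h, DL1 at 68 h) it was 4, 0 and 3 with a pseudocount of 0.1 and 3, 0 and 2 with no filter. With no filter it was 5 from 20 to 44 h on OP9, and with a filter at 5 TPM 1 for DL1 with anti-IgM at 68 h. Without the high-Actb libraries it was 1 for DL1 with anti-IgM at 68 h, 18, 3 and 1 for LPS against anti-IgM (OP9 at 44 and 68 h, DL1 at 44 h), 30 and 3 from 20 to 44 h (OP9 LPS, DL1 anti-IgM), 23 and 1 from 44 to 68 h (OP9 LPS, DL1 anti-IgM) and 28 for Blimp1+ cells against 44 h. That fit could not be made for DL1 against OP9 at 20 h. The cause of these moves was not tested.

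Leaving out 1 library gave counts of 15 to 22 for DL1 without stimulus, 2 to 16 with LPS and 6 to 18 with anti-IgM at 20 h, and 0 to 2 with anti-IgM at 68 h. Against no stimulus they were 34 to 39 and 28 to 32 on OP9, and 11 to 17 and 21 to 24 on DL1. For LPS against anti-IgM they were 1 to 3 and 0 to 2 on OP9, and 0 to 3 on DL1 at 68 h. They were 3 to 15 from 20 to 44 h on OP9, 7 to 12 and 5 to 19 from 44 to 68 h of LPS on OP9 and DL1, and 5 to 8 for Blimp1+ cells against 44 h.

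With the replicate number as a block no count moved by over 1.5 times (39 for LPS against no stimulus on OP9), and of 145 results for single genes 144 kept their call and 1 lost it, Rfc1 from 44 to 68 h of LPS on DL1 (adjusted p = 0.052). No called difference of a named member reversed under a setting tried. The median of the 44 genes changed sign on the TPM as deposited in 2 comparisons without calls, LPS against anti-IgM on DL1 at 44 h (-0.07 against 0.09) and Blimp1+ cells against 68 h (-0.23 against 0.04). With 3 libraries a group the precision is low, so a member that was not called may have changed.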
